A study of Homo sapiens with 4 samples.

Results

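Histone and DNA modifying enzymes were followed in U937 cells after knock-down of PIR. U937 is an established human line from a histiocytic lymphoma with monocytic features, and pirin, the product of PIR, is a nuclear protein that binds iron. The knock-down cells carried the short hairpin shPIR#7 in the lentiviral vector pSICO-R, and the control cells carried the same vector without a hairpin. Both were grown in RPMI-1640 with serum, and the labels name 1 hairpin and 1 line, so effects of this hairpin on other transcripts and of PIR loss cannot be told apart. For each condition equal amounts of RNA from 3 extractions were mixed into 1 pool, and the pool was hybridised to 2 Affymetrix HG-U133 Plus 2.0 arrays, which report a signal intensity for each probe set.

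Members were all genes whose platform symbol names a lysine demethylase (KDM), lysine methyltransferase (KMT), lysine acetyltransferase (KAT), histone deacetylase (HDAC), sirtuin (SIRT) or SET domain gene (SETD), together with EZH1, EZH2, DNMT1, DNMT3A, DNMT3B, TET1, TET2, TET3, EP300, CREBBP and DOT1L. This gave 77 of 19775 genes with a symbol of their own, each represented by its brightest probe set. Measured genes were those with 1 pool or both at or above a limit of brightness on each of its arrays, the 60th percentile of signal (116.4 to 125.5). Of the members, 68 were measured, among 10288 measured genes in all. The 9 others were the enzyme genes HDAC4, HDAC7, HDAC9, SIRT4, KDM4D and KDM5D and the non-coding transcripts HDAC4-AS1, KMT2E-AS1 and HDAC2-AS2. The only measured non-coding member was KDM7A-DT, a transcript divergent from KDM7A.

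These enzymes write and erase the chemical marks of chromatin. Acetyltransferases neutralise lysines on histone tails and deacetylases reverse this, methyltransferases with a SET domain or of the DOT1L type add methyl groups to lysines, and demethylases of the flavin-dependent and JmjC kinds remove them. DNMT enzymes methylate cytosine in DNA, and TET enzymes oxidise the methyl group. In myeloid cells several of these genes, such as EZH2, DNMT3A, TET2 and KMT2A, are known from leukaemia.

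Both arrays of a pool carried the same RNA and say nothing of the spread between cultures. Each error is the SD of a pool's 2 hybridisations (n = 2 arrays throughout), so the comparison of the pools has no replicate check and no p-value. Differences are given on the log2(signal + 18) scale as knock-down minus empty vector, which understates the change of dim genes. The 2-fold rule asked for a difference of 1 or more between pools, for 0.5 or more the same way in each of the 4 pairings of a knock-down with an empty-vector array, and for a higher pool above the limit of brightness. The 1.5-fold rule used 0.58 and 0.29 in their place. The median SD between arrays over the measured members was 0.12 for knock-down RNA and 0.07 for empty-vector RNA, while over all measured genes it was 0.07 and 0.06. PIR had signals of 83.4 and 91.5 on the knock-down arrays, against 1813 and 1882 on empty-vector arrays. Of the myeloid markers, CEBPA, ITGB2, LYZ, SPI1, CSF1R and ITGAM were measured, and MPO, CD14 and FCGR1A were not. None of 4 T cell markers and none of 2 erythroid markers on the array was measured. Of the B cell markers CD79A and PAX5 were measured, with pool means between 300.4 and 390.4, and MS4A1 was not. Of the 4 fibroblast markers COL1A1 alone was measured.

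On the log2 scale 61.8% of the measured members differed by less than 0.3 between the pools, close to 59.8% of all measured genes. By the 2-fold rule HDAC5 and HDAC11 rose and no member fell. HDAC11 was measured only through the knock-down pool, and against the limit of brightness it was at least 1.34-fold higher. Over all measured genes 2.44% rose and 1.10% fell by the 2-fold rule, so 2 of 68, or 2.94%, was close to the background. By the 1.5-fold rule HDAC5, HDAC11, KDM1B and KDM5B rose and EZH2 fell. That is 4 of 68 higher, or 5.88%, against 8.51% of all measured genes, and 1 of 68 lower, or 1.47%, against 4.95%. These counts changed with scaling and with single arrays left out. Leaving out an array also loosens the rule, because fewer array pairs and fewer arrays must meet it. After median scaling 8 members (11.8%) were higher, against 13.1% of all measured genes. With 1 array left out, 3 members (4.29%) were lower without the first knock-down array, 5 (7.35%) without the second and 2 (2.94%) without the second empty-vector array, against 5.70%, 5.97% and 6.29% of all measured genes. Without the first knock-down array 7 members (10.0%) were higher, against 10.4% of all measured genes. In pooled RNA, fewer cells with a transcript and less transcript per cell cannot be told apart.

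The median difference of the 68 members was -0.04, against 0.05 over all measured genes. Of the members 31 had a positive and 37 a negative difference, while over all measured genes 5680 were positive and 4608 negative. Both knock-down arrays lay above both empty-vector arrays for 21 members (30.9%, against 40.9% of all measured genes) and below them for 24 (35.3%, against 31.2%), and the arrays of the pools overlapped for 23. Differences smaller than 0.3 in size were found for 42 members (61.8%, against 59.8% of all measured genes). These signs depend on the scaling of the arrays. Scaling to a common median moved the median of all measured genes by 0.12 and that of the members to 0.08, and quantile normalization gave -0.08. After median scaling 47 members were positive and 21 negative, beside 7098 and 3189 of all measured genes. Relative to all measured genes, the members' median was -0.09 as deposited, -0.09 after median scaling and -0.11 after quantile normalization.

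**Figure D1:**
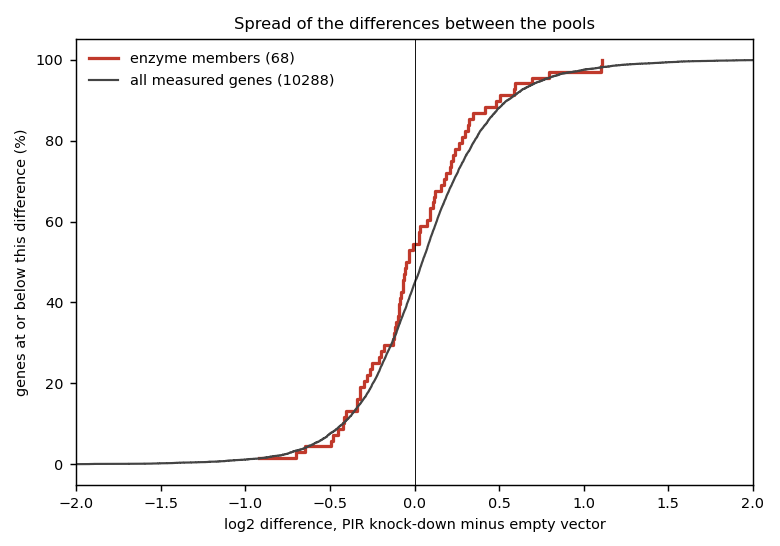
Cumulative share of genes (vertical axis, %) by log2 difference between the PIR knock-down and the empty-vector pool (horizontal axis), for the 68 measured enzyme members and for all 10288 measured genes. The curves run close together, with medians of -0.04 and 0.05.

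**Figure D2:**
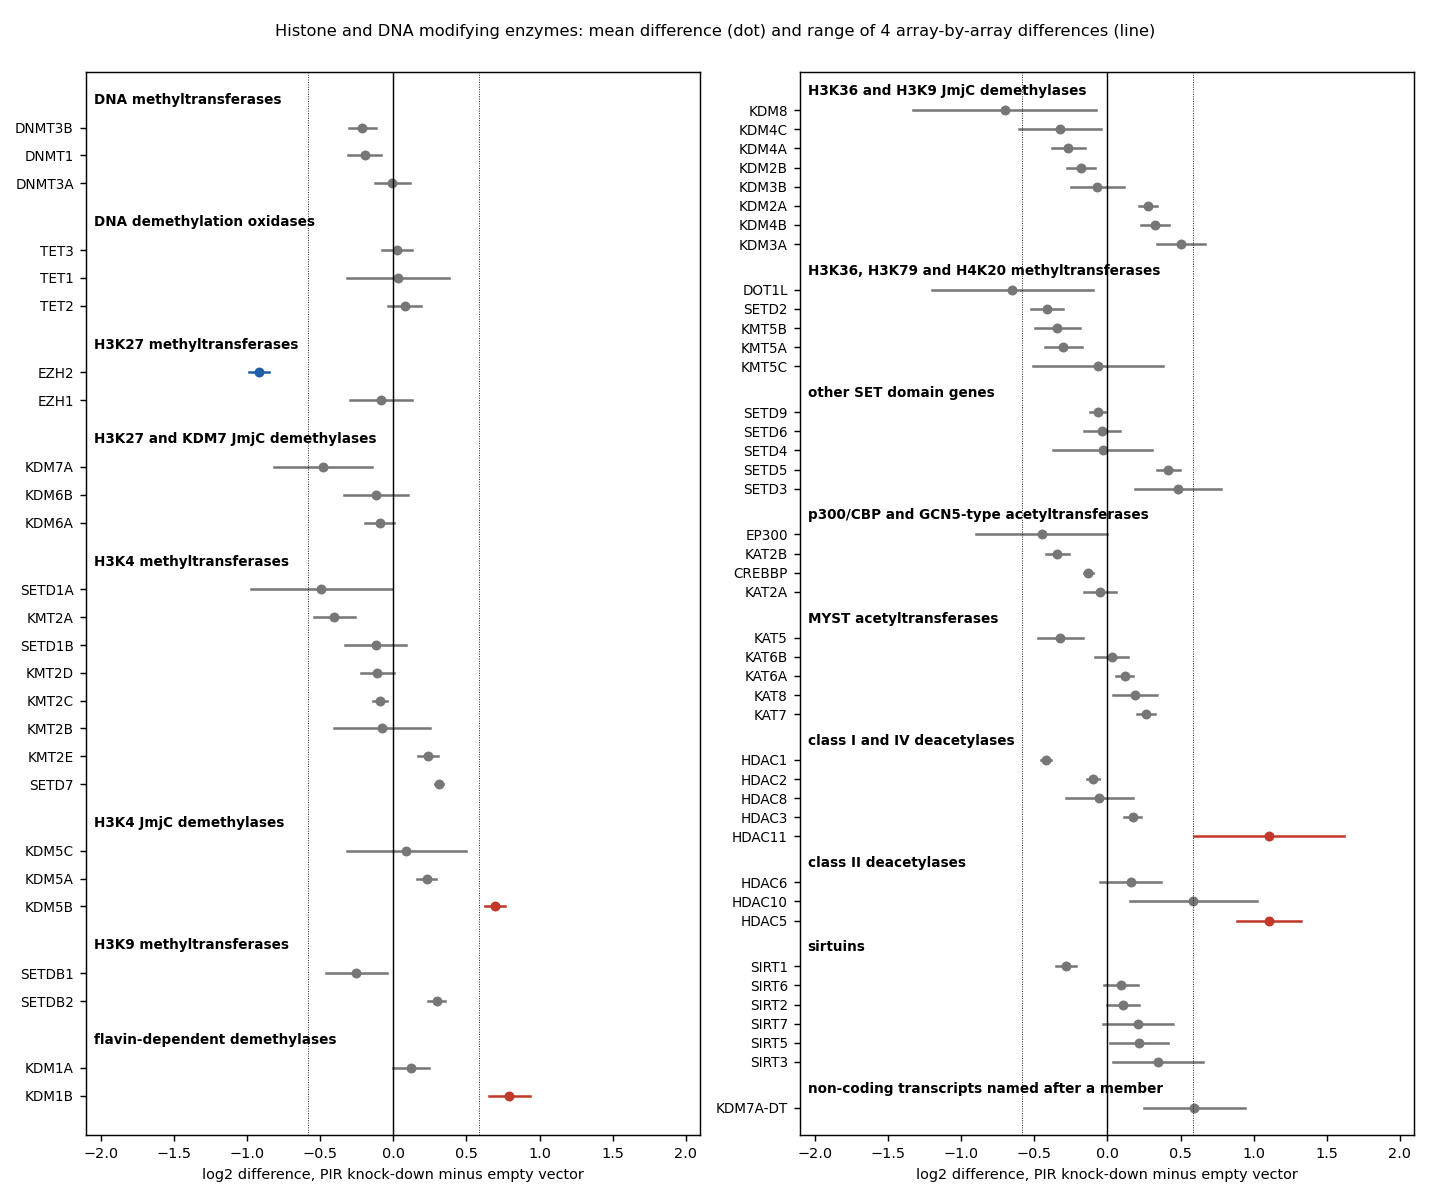
Log2 difference between the pools (horizontal axis) for each measured member, grouped by role. Dots are differences of pool means, lines span the 4 array-by-array differences, dotted lines mark the 1.5-fold limit, and colour marks members that met the 1.5-fold rule as higher (red: HDAC5, HDAC11, KDM1B, KDM5B) or lower (blue: EZH2).

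The bases before the start site are shown for EZH2, the member that fell, and for KDM1B and KDM5B, which rose on more than 1 probe set, so that the promoters of members called in opposite directions stand side by side. They come from the RefSeq table of start sites (build GRCh38.p14). Each run holds the 250 bases before the annotated start, 5′ to 3′ on the gene's strand. Capitals mark the CCAAT box (CCAAT, bound by NF-Y) and the E2F motifs TTTCCCGC and TTTGGCGC, searched on both strands. EZH2 lies on the minus strand at chr7:148884292-148884541, KDM1B on the plus strand at chr6:18155172-18155421, and KDM5B on the minus strand at chr1:202808422-202808671.
EZH2: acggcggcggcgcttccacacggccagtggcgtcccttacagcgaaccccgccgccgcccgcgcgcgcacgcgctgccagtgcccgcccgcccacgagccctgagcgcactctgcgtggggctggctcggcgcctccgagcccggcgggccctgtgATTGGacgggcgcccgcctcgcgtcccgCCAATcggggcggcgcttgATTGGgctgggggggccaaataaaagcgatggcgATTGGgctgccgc
KDM1B: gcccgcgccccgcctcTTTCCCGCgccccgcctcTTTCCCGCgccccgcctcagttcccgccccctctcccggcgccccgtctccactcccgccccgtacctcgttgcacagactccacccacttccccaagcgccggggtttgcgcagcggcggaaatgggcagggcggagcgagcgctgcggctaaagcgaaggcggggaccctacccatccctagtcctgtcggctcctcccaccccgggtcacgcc
KDM5B: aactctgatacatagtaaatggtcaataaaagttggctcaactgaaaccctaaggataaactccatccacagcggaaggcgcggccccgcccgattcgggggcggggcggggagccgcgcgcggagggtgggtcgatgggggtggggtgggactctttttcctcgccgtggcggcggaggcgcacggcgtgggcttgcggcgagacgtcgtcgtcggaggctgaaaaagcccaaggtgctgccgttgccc

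The EZH2 window held 4 CCAAT boxes, starting 94, 66, 47 and 13 bases before the start site, of which the one at 66 reads CCAAT as printed and the others read it on the opposite strand. An E2F motif, TTTGGCGC, began at the second transcribed base, beyond the printed run. The KDM1B window held TTTCCCGC at 234 and 216 bases before the start, and the KDM5B window held none of these letters. Over all 35116 windows of 300 bases in the table, 34.6% held CCAAT, 0.991% held it at least 4 times, 1.63% held TTTCCCGC and 0.652% held TTTGGCGC. These shares are by window, and the 71 members with a window had 112 of them. Counted by member, 3 held at least 4 CCAAT boxes in any of their windows. These were EZH2, KAT6B and KDM4B, and their log2 differences were -0.92, 0.03 and 0.32. The second EZH2 start in the table had no such match. A match is a description of letters, not of a bound site.

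The methyltransferases of H3K27, the mark of Polycomb repression, gave the one lower member. EZH2, the main catalytic subunit of the Polycomb complex PRC2 in dividing cells, had signals of 1679 and 1812 on the knock-down arrays, against 3352 and 3287 on empty-vector arrays. The groups did not overlap, and the arrays of each pool lay close together. EZH2 fell by 0.92 on the log2 scale, a 1.89-fold difference, with array-by-array differences from -0.99 to -0.85. It had 1 measured probe set, whose identifier (_s_at) marks probes shared between transcripts. EZH1, its paralogue of resting cells, had 320.8 and 341.5 on the knock-down arrays, against 311.6 and 398.1 on empty-vector arrays, which overlap. Another 2 measured EZH1 probe sets had -0.64 and -0.37, and the first of these met the 1.5-fold rule as lower, so the brightest EZH1 probe set was the least changed.

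Other PRC2 subunits were not called by either rule. EED, which reads the mark, had 2691 ± 24.5 in knock-down RNA, against 3478 ± 113 in empty-vector RNA (-0.37). SUZ12, the scaffold subunit, had -0.26, and the histone chaperones RBBP4 and RBBP7 had -0.43 and -0.15. The accessory subunits AEBP2, JARID2, MTF2 and PHF1 had -0.19, 0.02, 0.23 and 0.28, so the complex held differences of both signs. PHF19, which links PRC2 to H3K36 methylation, had the lowest value of the 21 measured Polycomb subunits, at -0.58, and CBX7, a reader in PRC1, the highest, at 0.64 from a dim signal. The median of the 21 was 0.01, and neither direction was called by either rule.

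Proliferation markers were lower in the same RNA as EZH2. Of 14 measured markers, 9 met the 1.5-fold rule as lower, as did 4.95% of all measured genes, and the median difference of the markers was -0.70. MKI67 had -1.28 and PLK1 -1.21, and both fell by the 2-fold rule. Only PCNA, the sliding clamp of replication, had a positive difference, at 0.16. The summed signal of the list was 102693 and 96794 on the knock-down arrays, against 136478 and 135926 on empty-vector arrays. The part of these markers in the EZH2 difference was not tested. Of 6 measured myeloid markers, 2 rose by the 1.5-fold rule, as did 8.51% of all measured genes. These were ITGAM, the CD11b integrin, at 1.90 and CSF1R, the M-CSF receptor, at 0.69. ITGAM also rose by the 2-fold rule, as did 2.44% of all measured genes. ITGB2, CEBPA, LYZ and SPI1 had 0.38, 0.26, 0.01 and -0.13, and the part of these markers was not tested either. The summed signal of the 9 myeloid markers on the array was 48115 and 52518 on knock-down arrays, against 44254 and 45562 for the empty vector.

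The demethylases that remove methyl groups from H3K27 and related sites met neither rule. KDM7A had 170.3 and 250.2 on the knock-down arrays, against 313 and 279.5 on empty-vector arrays, a difference of -0.48 without overlap but with a wide spread. KDM7A-DT, its divergent non-coding neighbour, had 162.9 and 136.3 against 76.4 and 111.8, and was not called. Its empty-vector signals lay below the limit of brightness, and against that limit it was at least 1.16-fold higher. KDM6A and KDM6B, the UTX and JMJD3 demethylases, had -0.09 and -0.12 on their brightest probe sets. The other 3 measured KDM6B probe sets had -0.18, -0.42 and -0.88, and the last of these, a dim one, met the 1.5-fold rule as lower.

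**Figure D3:**
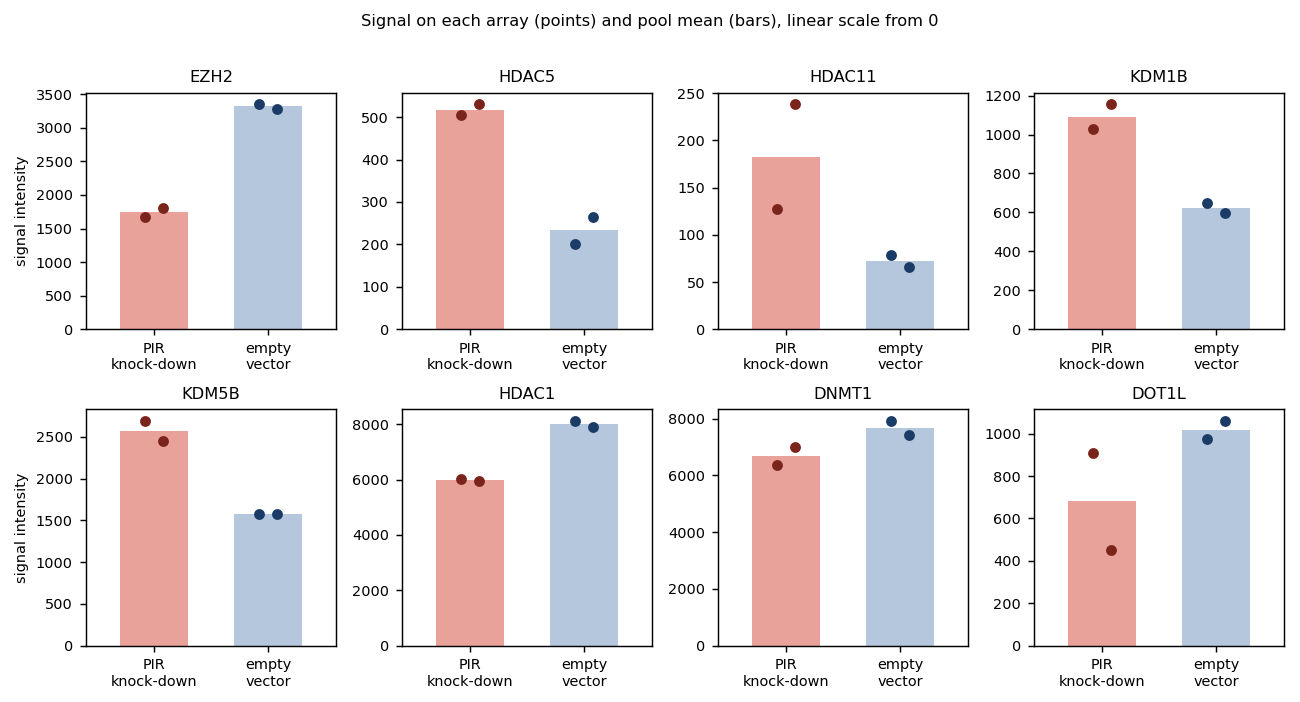
Signal intensity (vertical axes, linear from 0) of 8 members on each array, with points for arrays and bars for pool means, PIR knock-down left and empty vector right. The arrays of each pool lie close together for EZH2 and KDM5B, whereas the knock-down arrays of HDAC11 and DOT1L lie far apart.

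Enzymes of H3K4 methylation, the mark of active promoters and enhancers, differed in the demethylase KDM5B. KDM5B, which removes di- and trimethylation from H3K4, had 2694 and 2453 on the knock-down arrays, against 1581 on each empty-vector array. It rose by 0.70, a 1.62-fold difference, and the arrays did not overlap. Its other 2 measured probe sets had 0.66 and 0.64 and also met the 1.5-fold rule, so the 3 probe sets gave nearly the same value. All 3 carry the _x_at or _s_at mark of shared probes, and the 2 KDM5B probe sets without it, neither of them measured, had -0.66 and -0.27. The relatives KDM5A and KDM5C, not called, had 0.23 and 0.09 on their brightest probe sets, but other measured probe sets of KDM5A had -0.16, 0.20 and -0.09 and that of KDM5C had -0.49.

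None of the 8 measured H3K4 methyltransferase genes was called. KMT2A, the MLL gene, had 347.5 and 415.2 on the knock-down arrays against 502.1 and 514.6 on empty-vector arrays, a difference of -0.40. Its 3 other measured probe sets had -0.43, 0.07 and 0.17. SETD1A, a catalytic subunit of the SET1 COMPASS complex, had the lowest value of the class at -0.49, with array-by-array differences from -0.98 to -0.01 and 1 of its knock-down arrays below the limit of brightness. SETD7, which monomethylates H3K4 and non-histone proteins, had the highest, with 3126 and 3076 against 2517 and 2466 (0.31), and its arrays were tightly paired. KMT2E, a relative thought to lack methyltransferase activity, had 0.24 on its brightest probe set and -0.62 and -0.21 on the other 2, the first of which met the 1.5-fold rule as lower. KMT2B, KMT2C, KMT2D and SETD1B had differences from -0.12 to -0.08 on their brightest probe sets. The other 2 measured KMT2C probe sets had 0.27 and 0.25, and those of KMT2D had -0.13 and -0.46. The 13 measured subunits of the various COMPASS complexes had a median of -0.07, from -0.44 for PAXIP1, of the KMT2C and KMT2D complexes, to 0.33 for DPY30, a subunit of them all, and none was called.

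Of the flavin-dependent demethylases, KDM1B was called and KDM1A was not. KDM1B (LSD2), which acts on H3K4 in transcribed genes and in oocytes, had 1026 and 1156 on the knock-down arrays against 646.9 and 595.3 on empty-vector arrays. It rose by 0.79, a 1.73-fold difference, with no overlap. Its second measured probe set had 0.89 and met the 1.5-fold rule. That probe set had 237.1 and 221 against 140.7 and 94.1, the last of them below the limit of brightness. It was thus measured only through the knock-down pool, where it was high. KDM1A (LSD1), the enzyme of the CoREST complex, had 1943 and 1809 against 1635 and 1815, which overlap, and a difference of 0.12.

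The 5 members that methylate H3K36, H3K79 or H4K20 all had negative differences, none of them called. Outside the symbol rule NSD1 had 0.11, and its relatives NSD2 and NSD3 had -0.39 and -0.33. SETD2, which trimethylates H3K36 in transcribed genes, had 1086 and 965.4 against 1346 and 1398 (-0.42), and its other 2 measured probe sets had -0.13 and -0.39. KMT5A, which monomethylates H4K20 and is regulated through the cell cycle, had 1251 and 1428 against 1616 and 1687 (-0.30), with -0.46, -0.49 and -0.26 on 3 further probe sets. KMT5B had -0.34, with -0.05 and -0.60 on 2 further probe sets, the second of which met the 1.5-fold rule as lower, and KMT5C had -0.06 with overlapping arrays. These 2 enzymes add further methyl groups to monomethylated H4K20. After median scaling 4 of the 5 genes were still negative, with a median of -0.22.

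The difference of DOT1L, the H3K79 methyltransferase, rested on 1 array. DOT1L had 909.4 and 450.7 on the knock-down arrays, against 973.9 and 1061 on empty-vector arrays, a difference of -0.65 that missed the margin over array pairs. Without the first knock-down array the difference was -1.14 and met the 2-fold rule, and without the second it was -0.16. The other measured DOT1L probe set had 733.2 and 714.1 against 738.1 and 692.5, a difference of 0.02.

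The JmjC demethylases of H3K36 and H3K9 had differences of both signs, none of them called. KDM3A, an H3K9 demethylase induced by low oxygen, had 1684 and 1478 on the knock-down arrays against 1162 and 1056 on empty-vector arrays, a difference of 0.50 that stayed under the limit. KDM4B had 0.32, with 0.32, 0.28 and 0.26 on its 3 other measured probe sets. KDM4A and KDM4C, its relatives, had -0.27 and -0.32, although a second KDM4A probe set had 0.24. The H3K36 demethylases KDM2A and KDM2B had 0.28 and -0.18, and 2 further KDM2A probe sets had -0.28 and 0.09. KDM8, a JmjC oxygenase, had the lowest value at -0.70 from dim signals of 100 and 151.5 against 278.5 and 160.9, the first of them below the limit of brightness. Without the second empty-vector array its difference was -1.07 and met the 2-fold rule, so it depended on 1 array.

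The H3K9 methyltransferases SETDB1 and SETDB2 had differences of opposite sign, neither called. SETDB1, which silences retroelements with TRIM28, had 664.9 and 514.6 against 685.4 and 715.7 (-0.25), and its other measured probe set had 0.13. SETDB2 had 3122 and 3267 against 2550 and 2643 (0.30). Its 5 other measured probe sets ran from -0.47 to 0.35, so they disagreed by more than the arrays did. Among 18 measured lysine methyltransferases and demethylases outside the symbol rule, none was called, from -0.39 for NSD2, an H3K36 methyltransferase, to 0.44 for EHMT2, the G9a enzyme of H3K9. Of the remaining SET domain genes SETD3, an actin histidine methyltransferase, had 2052 and 3022 against 1758 and 1795 (0.48), and SETD5 had 3238 and 3009 against 2292 and 2377 (0.42). A second SETD5 probe set gave 0.41, whereas the 2 remaining ones gave 0.05 and 0.01. SETD4, SETD6 and SETD9 had differences from -0.07 to -0.03, and a second SETD4 probe set had 0.11.

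Acetyltransferases were not called in either direction. EP300, the p300 coactivator, had 182.2 and 312.4 on the knock-down arrays against 313 and 354.9 on empty-vector arrays. This gave -0.45, and its other measured probe set also had -0.44, but the knock-down arrays lay far apart and the difference was -0.09 without the first of them. CREBBP, its paralogue, had 1793 and 1739 against 1923 and 1945 (-0.13), a small difference without overlap. KAT2B (PCAF) had 455.2 and 497.9 against 614.7 and 602.2 (-0.34), and KAT2A (GCN5), its paralogue in the SAGA complex, had -0.05 with overlapping arrays. The MYST enzymes ran from -0.32 for KAT5 (TIP60), the enzyme of the NuA4 complex, to 0.26 for KAT7 (HBO1), which acetylates H3K14 and H4 near replication origins. KAT7 had 1305 and 1275 against 1039 and 1107. The 2 further KAT5 probe sets had -0.42 and -0.12, and all 3 carry the _x_at mark of cross-hybridising probes. KAT6A, KAT6B and KAT8 had 0.12, 0.03 and 0.19 on their brightest probe sets, and 3 further KAT6B probe sets had 0.27, -0.24 and 0.36. The 29 measured partner subunits of acetyltransferase complexes had a median of -0.07, from -0.45 for MSL2, of the KAT8 complex MSL, to 0.32 for SGF29, of SAGA, and none was called.

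Deacetylases held the only members that met the 2-fold rule. HDAC5, a class IIa enzyme that shuttles between cytoplasm and nucleus and binds MEF2 factors, had 504.8 and 530.3 on the knock-down arrays, against 201.4 and 265.4 on empty-vector arrays. It rose by 1.10, a 2.15-fold difference, with 0.88 to 1.32 over the 4 array pairs. HDAC11, the class IV enzyme, had 127.4 and 238.2 against 78.5 and 65.4, a difference of 1.11 with 0.59 to 1.62 over array pairs. Its empty-vector signals lay below the limit of brightness, and against that limit it was at least 1.34-fold higher. Each 2-fold call rested on 1 array: HDAC11 was at 0.70 without the second knock-down array, and HDAC5 at 0.92 without the first empty-vector array. Neither gene had a second measured probe set. HDAC10, a class IIb enzyme that acts on polyamines, had 206.3 and 274.5 against 183.6 and 126, a difference of 0.59 that missed the margin over array pairs. HDAC6, the cytoplasmic tubulin deacetylase, had 0.16 with overlapping arrays.

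The class I deacetylases, which include HDAC1 and HDAC2 of the NuRD, SIN3 and CoREST complexes, were not called. HDAC1 had 6034 and 5934 on the knock-down arrays, against 8132 and 7901 on empty-vector arrays. The difference of -0.42 was under the 1.5-fold limit, and over array pairs it ran from -0.45 to -0.39. That range reflects hybridisations of the same pools and not the spread between cultures. HDAC2, its paralogue, had 7572 and 7734 against 8351 and 8063 (-0.10), without overlap. A second, dim HDAC2 probe set had -0.71. HDAC3, the enzyme of the NCoR complex, had 0.17. HDAC8 had -0.05 on its brightest probe set, with overlapping arrays, and -0.20 and -0.85 on the other 2. The last of these met the 1.5-fold rule as lower, with 195.8 and 189.9 against 353.2 and 372.3. Of 21 measured partner subunits, beside 4.95% of all measured genes lower, SUDS3, a SIN3 complex subunit, was the only one called, at -0.83 (392.2 ± 2.97 in knock-down RNA, against 712 ± 4.38 in empty-vector RNA), and CHD3, a NuRD remodeller, had the highest value at 0.51.

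Sirtuins, the NAD-dependent deacylases, were not called. SIRT1, the nuclear enzyme, had 893.9 and 870.3 against 1042 and 1115 (-0.28), without overlap. The mitochondrial enzymes SIRT3 and SIRT5 had 0.34 and 0.21, and 2 further SIRT3 probe sets had 0.43 and -0.24. SIRT2, SIRT6 and SIRT7 had 0.11, 0.09 and 0.21 with overlapping arrays, and a second SIRT6 probe set had -0.26 without overlap. A dim SIRT2 probe set with 91.3 and 76.3 against 130.1 and 162.3 met the 1.5-fold rule as lower at -0.69, against the sign of the brightest one.

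None of the 6 enzymes of DNA methylation was called. DNMT1, the maintenance methyltransferase, had 6385 and 7002 on the knock-down arrays against 7933 and 7418 on empty-vector arrays. Its difference was -0.20, without overlap. DNMT3B, a de novo methyltransferase, had 569.8 and 600.7 against 707.1 and 654.5 (-0.21), and DNMT3A, the other de novo enzyme, had -0.01 with overlapping arrays and -0.22 on a second probe set. TET1, TET2 and TET3 had 0.03, 0.08 and 0.03, and the arrays of the pools overlapped for all of them. A second TET3 probe set had -0.17.

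Of 12 measured partners of DNA methylation, 1 rose and 3 fell by the 1.5-fold rule, beside 8.51% and 4.95% of all measured genes. HELLS, a remodeller needed for DNA methylation, had 1378 ± 95.5 in knock-down RNA, against 2326 ± 80.6 in empty-vector RNA and fell by 0.75. TDG, the glycosylase that removes oxidised methylcytosine, and IDH2, which makes the 2-oxoglutarate used by TET and JmjC enzymes, fell by the 1.5-fold rule at -0.59 each. IDH1, the cytosolic counterpart of IDH2, rose at 0.59, with 20147 ± 115 against 13380 ± 489. UHRF1, which guides DNMT1 to newly copied DNA, had -0.49 and was not called. The proliferation markers given beside EZH2 were lower in the same pool, and their part in these values was not tested.

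**Figure D4:**
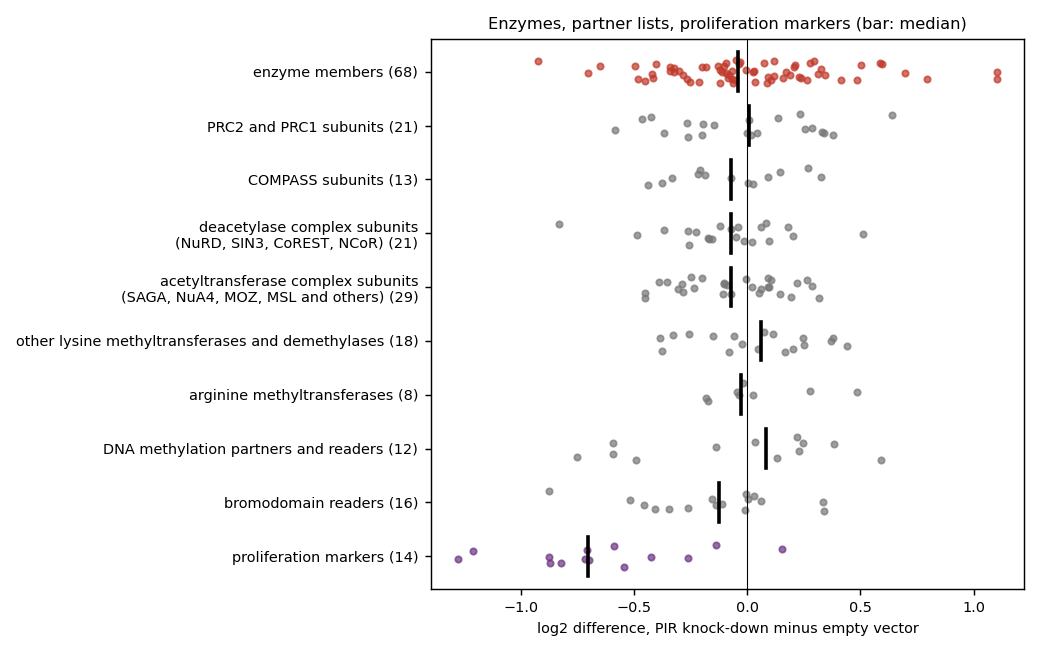
Log2 difference between the pools (horizontal axis) for each measured gene of the enzyme set, of the partner lists and of the proliferation markers, with the number of genes in brackets and a bar at the median. The enzymes and partner lists have medians between -0.12 and 0.08, and the 14 proliferation markers have a median of -0.70.

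Other probe sets of the same genes gave a separate reading of the same RNA pools. In all, 67 further measured probe sets belonged to 37 of the measured members, and 46 of them had the sign of the brightest probe set and 21 the opposite sign. In 13 cases both were at least 0.3 away from 0, and all 13 had the same sign. This cut left out genes whose brightest probe set changed less, such as KMT2E (0.24 against -0.62) and SIRT2 (0.11 against -0.69). SETDB2 was also left out, as its brightest probe set had 0.297, just under the cut. Its further probe sets had values as far apart as 0.35 and -0.47. All measured probe sets had 1 sign in 21 of the 37 members and mixed signs in 16. A further KDM1B probe set also met the 1.5-fold rule, but it was measured only through the knock-down pool, where it was high. The further measured KDM5B probe sets all carry the _x_at or _s_at mark of shared probes. The KDM5B probe sets without that mark were not measured and had -0.66 and -0.27. EZH2, HDAC5 and HDAC11, like HDAC1, rested on a single measured probe set.

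**Figure D5:**
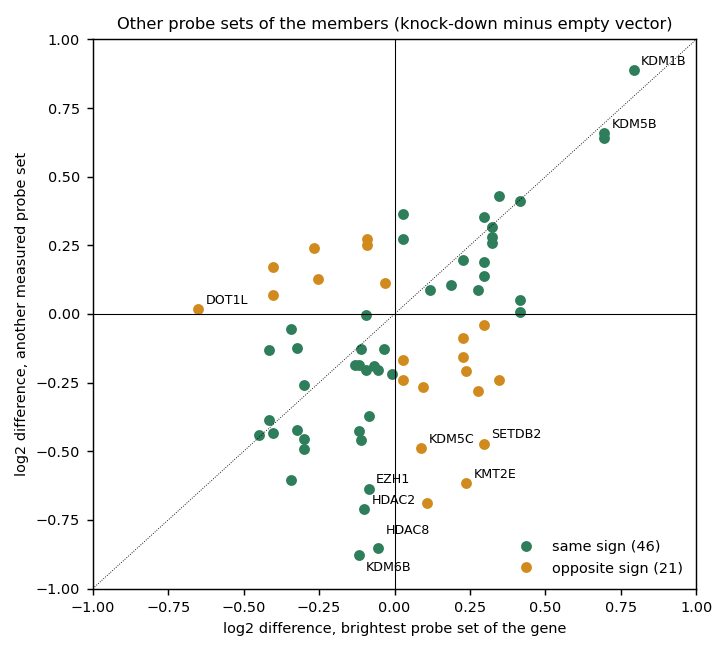
Log2 difference of each further measured probe set (vertical axis) against that of the brightest probe set of the same member (horizontal axis), with equality dotted. Of the 67 points, 46 share the sign, and the KDM5B and KDM1B points lie near the dotted line.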

How the data were processed

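RNA was extracted with TRIzol and RNeasy columns, labelled with biotin and hybridised, per the labels' protocols; the authors used GCOS, per the submitters' processing notes, with no version or setting named there. Per array and probe set, the values deposited are 1 linear signal intensity, scaled so that the mean without the 2% of probe sets at each end was 500.07 on every array. This assumes equal total signal in both pools. The number of arrays limits only how precisely each pool was read, and 1 pool per condition gives no spread between cultures.

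Of 54675 probe sets, 62 controls were left out and 41091 with 1 symbol were used. The 2 arrays of a pool were averaged and counted as 1 sample, so no test was made. The pseudocount of 18 is the 25th percentile of signal, averaged over the 4 arrays and rounded. The named-gene rule took 35 members: those called, the extremes of each role, the 5 brightest and those with disagreeing probe sets; of each partner list it took the called genes or the extremes. Members named beyond it complete a class, and they and EED, SUZ12, RBBP4, RBBP7, AEBP2, JARID2, MTF2, PHF1, NSD1, NSD3, UHRF1, TDG, IDH2, PCNA and the myeloid markers other than ITGAM were chosen after their values were seen. Members, lists, motifs and rules were chosen with earlier results of these data known. The size rules were tested on simulated data. The noise there was set from the spread between the 2 arrays of each pool. This could not test how the rules behave when cultures differ. All 77 gene identifiers and symbols matched the RefSeq table, and 71 members had a start-site window there. Alternatives covered pseudocount, brightness limit, scaling, margin, probe sets and single arrays. Python 3.11.15, pandas 2.3.3, numpy 2.4.6 and matplotlib 3.10.9 were used.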

Additional observations from a re-analysis of the deposited data

How the results depend on the processing

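The 5 called members kept their sign under all 13 alternatives that gave a value, except KDM5B without the probe sets marked _x_at or _s_at, where the brightest one left was not measured and had -0.66; EZH2 had no probe set left there. EZH2 ran from -0.98 to -0.80, HDAC5 from 0.92 to 1.29, HDAC11 from 0.70 to 1.51 and KDM1B from 0.71 to 0.92. By the 2-fold rule 0 members were higher with a pseudocount of 72, against 1.59% of all measured genes. With the 75th percentile limit 1 member (2.04%) was higher, against 1.84%. Leaving out 1 array, which loosens the rules, gave 1 to 2 higher and 0 to 1 lower members by the 2-fold rule. Of all measured genes 2.61% to 2.88% were then higher and 1.33% to 1.68% lower. The 1.5-fold rule gave 5 to 7 higher members (7.25% to 10.0%), against 9.29% to 10.4% of all measured genes. It gave 1 to 5 lower members (1.45% to 7.35%), against 5.70% to 6.36%. The lower ones included DOT1L at -1.14 without knock-down array 1, KDM8 at -1.07 without empty-vector array 2, and EP300 at -0.81, KDM7A at -0.74 and SETD1A at -0.87 without knock-down array 2. By the 1.5-fold rule 8 members (11.8%) were higher after median scaling, against 13.1% of all measured genes. Without the margin 3 (4.41%) were lower, against 5.32%, and without the brightness limit 2 (2.60%), against 6.44%. The median of the members was 0.080 after median scaling, when that of all genes was 0.17, and ran from -0.026 to 0.032 with 1 array left out. Over all genes, the 2-fold rule gave 448 higher and 414 lower genes without the brightness limit, 142 higher with the stricter one, 164 higher with the pseudocount of 72, and 140 to 177 lower with 1 array left out. The 1.5-fold rule gave 1380 higher and 1274 lower without the limit, 552 higher with the stricter one, and 1348 higher and 303 lower after median scaling. Of 36 named genes, 25 kept their sign under every alternative that gave a value. No paired analysis was possible because these results come from no test: each condition is 1 pool. Dim members such as HDAC11, KDM8 and SETD1A are limited by signal over background.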

Other observations

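Bromodomain proteins, which read acetylated lysines, had a median difference of -0.12. Of 16 measured genes BAZ1A, a subunit of chromatin remodellers active in replication, was the only one called, beside 4.95% of all measured genes lower by the 1.5-fold rule. It fell by 0.88 on the log2 scale, with 1432 ± 113 in knock-down RNA, against 2639 ± 48.9 in empty-vector RNA (SD, n = 2 arrays). The highest value was 0.34 for BRWD3. Of the 8 measured arginine methyltransferases none was called, from -0.18 for PRMT3 to 0.49 for CARM1, a coactivator methyltransferase.

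The 3 probe sets annotated to both KAT14 and PET117 name no single gene and were not assigned. Their signals were 421.8 and 409.1, 581.4 and 585.1, and 113.7 and 110.9 on the knock-down arrays, against 453.2 and 424.8, 471.9 and 380.8, and 55.4 and 65.3 on the empty-vector arrays.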
